A study of Macaca mulatta with 24 samples.

Results

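The enzymes described here build or modify heparan sulfate and dermatan sulfate. They are encoded by 10 genes chosen by name: EXT1, NDST1, NDST2, NDST3, NDST4, HS2ST1, HS3ST1, HS6ST1, DSE and DSEL. Every probe set of the rhesus array that the platform annotation pairs with a single one of these symbols was taken, which gave 22 probe sets for 10 of 10 genes, out of 52766 probe sets and 14132 distinct single symbols on the array. The list was drawn up with results of these arrays known. The study itself had picked NDST4 for a PCR assay from its deprivation comparison. It reported a fall by both array and PCR, without naming the layer class beside these values. The probe set used below for DSEL stands, under another symbol, on its list for magnocellular layers. Deprivation values of each of the 10 genes are therefore given as a description with no p-value, and calls in those contrasts are only counted, beside the share over all probe sets. Differences between kinds of layer were tested.

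Heparan sulfate and dermatan sulfate are long sugar chains that core proteins carry at the cell surface and in the matrix. In the Golgi a polymerase lengthens the chain, and sulfotransferases and epimerases then modify stretches of it, which sets which growth factors, morphogens and guidance molecules can bind there. In the developing brain these chains are known for their parts in axon guidance, synapse formation and the matrix around neurons. The roles given below are known mainly from human and mouse.

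The arrays hold RNA of single layers of the lateral geniculate nucleus (LGN), the thalamic relay between retina and visual cortex, captured by laser from 2 rhesus macaques whose left eye was covered or closed from birth. One animal wore an opaque contact lens for 2 months and the other had its lids closed by tarsorrhaphy for 4 months, so the length of deprivation, how it was done and the animal itself cannot be told apart. Each LGN gave 6 arrays, 1 per layer, with layers 3 to 6 parvocellular and layers 1 and 2 magnocellular. Input from the deprived eye reaches layers 2, 3 and 5 in the LGN on its own side (ipsilateral) and layers 1, 4 and 6 in the other (contralateral), which makes 8 deprived parvocellular arrays set against 8 nondeprived ones, and 4 deprived magnocellular arrays set against 4. The nondeprived layers lay in the same nuclei and were not layers of animals with normal vision. Sections of a layer were pooled into 1 sample, the koniocellular layers between them were left out, and the RNA was amplified in 2 rounds. Values are signals in arbitrary units, and a signal of 100 was the study's own minimum. The spread behind each p-value is that among layers of 4 LGNs from 2 animals, not that among animals, and the number of arrays limits the precision.

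The trimmed mean signal was 500.04 on every array, and 40.6% to 57.1% of probe sets read 100 or more. One array stood apart. It held ipsilateral layer 2, a deprived magnocellular layer, of the animal deprived for 2 months. Its 3'/5' ratio of GAPDH, a sign of RNA quality, was 50.8, against 1.97 to 14.3 elsewhere, and its mean correlation with the other arrays was 0.811, against 0.885 to 0.919. The magnocellular deprivation value of each gene's strongest probe set is given with and without it. TCF7L2, PVALB and NEFH, markers of thalamic relay neurons, read 13907 or more on 24 of 24 arrays, while of 2 markers of cortical neurons SLC17A7 stayed under 100 on 24 of 24 and NEUROD6 on 22 of 24, with a highest signal of 409 in a deprived parvocellular layer. In such pooled tissue, fewer cells of a type and less RNA per cell cannot be told apart.

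NDST4 was far lower in parvocellular than in magnocellular layers, and it was the 1 gene of the 9 tested that passed in this comparison. DSEL read higher in the deprived layer of every pair of layers within an LGN, parvocellular and magnocellular alike. In magnocellular layers the study had chosen this DSEL probe set by just such comparisons. It had also picked NDST4 from a deprivation comparison of these arrays. Between deprived and nondeprived magnocellular layers the signals of 3 genes did not overlap: DSEL lay higher in deprived layers, and NDST4 and HS3ST1 lay lower. The same held for 4.07% of all probe sets, 2.78% higher and 1.29% lower, and nothing is read from the count. For the other genes tested, deprived and nondeprived signals overlapped in both layer classes.

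**Figure D1:**
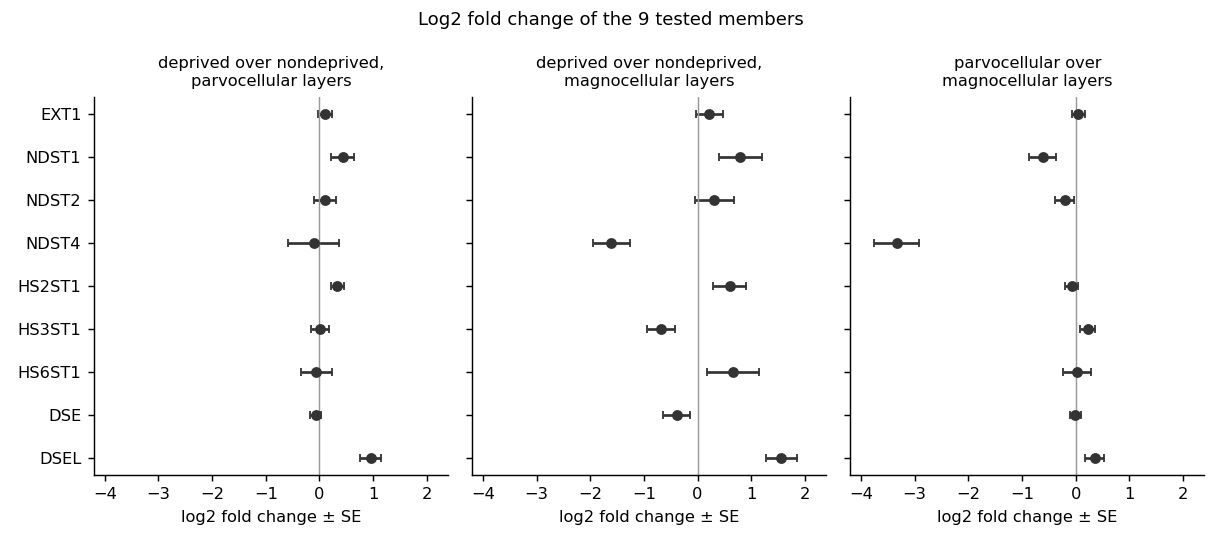
Log2 fold change (x axis) of the 9 tested genes (rows) in 3 comparisons, one per panel, with bars for the standard error of the limma fit. NDST4 lies at -3.33 for parvocellular over magnocellular layers and at -1.61 for deprived over nondeprived magnocellular layers, and DSEL at 0.95 and 1.56 for deprivation in parvocellular and magnocellular layers.

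EXT1 encodes a subunit of the polymerase that lengthens the heparan sulfate chain. Its probe set MmuSTS.3926.1.S1_s_at read 2087 to 4147 with a median of 3245.5 in deprived parvocellular layers, against 2322 to 3407 with a median of 2831 in nondeprived ones. Deprived magnocellular layers read 2289 and 3926 at 2 months and 2685 and 3639 at 4 months, against 2379, 3443, 2413 and 2431 in nondeprived magnocellular layers. Groups overlapped in both layer classes, and the deprived layer was the higher one in 4 of 8 parvocellular and 3 of 4 magnocellular pairs. The log2 fold change of deprivation was 0.10 (SE 0.13) in parvocellular and 0.22 (SE 0.25) in magnocellular layers, where it was 0.23 without the array that stood apart. Parvocellular against magnocellular layers gave 0.05 (SE 0.12, limma adjusted p = 0.885). The effect of deprivation in parvocellular layers at 4 months minus that at 2 months was -0.57 (SE 0.23), which did not pass after adjustment. A weaker probe set, MmuSTS.3926.1.S1_at, had log2 fold changes of 0.14 (SE 0.19), 0.16 (SE 0.35) and 0.25 (SE 0.16) in the same 3 comparisons of deprivation and layer class.

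The NDST enzymes remove acetyl groups from the glucosamine of the heparan sulfate chain and put sulfate in their place, the step that opens the way for the later sulfotransferases. NDST4, which in mouse has weak deacetylase activity, was read by MmugDNA.9615.1.S1_at. In parvocellular layers at 2 months it read 165, 206, 134 and 60.8 in deprived layers 3, 5, 4 and 6, against 347, 201, 307 and 114 in nondeprived layers 3, 5, 4 and 6. At 4 months the same layers read 62.6, 22.6, 26.0 and 49.5 when deprived, against 63.0, 29.5, 45.6 and 4.32 when nondeprived. In the animal deprived for 4 months all 8 parvocellular signals were thus under 100, and in the other animal 7 of 8 were above it.

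In magnocellular layers NDST4 read well above 100 on every array. Deprived layers 1 and 2 read 458 and 500.03 at 2 months and 271 and 465 at 4 months. Nondeprived layers 1 and 2 read 2288 and 1046 at 2 months and 759 and 1368 at 4 months. Within either animal the 8 parvocellular and 4 magnocellular signals did not overlap, the highest parvocellular and lowest magnocellular ones being 347 and 458 at 2 months, and 63.0 and 271 at 4 months. Across animals they did, since the 271 of one lay below the 347 and 307 of the other.

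NDST4 differed between parvocellular and magnocellular layers by -3.33 on the log2 scale (SE 0.42, limma adjusted p = 1.58e-05). It was negative in 4 of 4 LGNs, with differences of mean log2 signal of -2.16 and -2.52 at 2 months and -3.95 and -4.69 at 4 months. The second NDST4 probe set, MmugDNA.39659.1.S1_at, read at most 49.5 on any array and was not tested, and the mean over both probe sets had -1.81 (limma adjusted p = 0.0249). For the first probe set the ratio of magnocellular over parvocellular layers was 10.1, a value that is not exact because 9 of 16 parvocellular signals were under 100. With signals under 50 set to 50 its log2 fold change, parvocellular over magnocellular, was -2.93 (SE 0.25), and without the array that stood apart it was -3.50. Each animal alone gave -2.34 (SE 0.36, adjusted p = 0.0113) at 2 months and -4.32 (SE 0.57, adjusted p = 0.000997) at 4 months in limma, and the difference between these was not tested. Of 9 genes tested, 0 were higher and NDST4 was the 1 that was lower in parvocellular layers, where 3.6% of all probe sets tested were called, 2.25% higher and 1.35% lower.

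Some markers of cell types differed in the same contrast. Of 7 relay neuron markers 3 had a probe set, and 1 of 3, the neurofilament chain NEFH, was lower in parvocellular layers, at -0.66 on the log2 scale (SE 0.13, limma adjusted p = 0.00229), while PVALB had -0.34 and TCF7L2 0.0032 and neither passed. The summed signal of these 3 was 64038 to 106049 in parvocellular and 76018 to 125870 in magnocellular layers. Of 3 markers of GABA neurons 2 had a probe set, and they went opposite ways. GAD1, which makes GABA, had -0.56 (SE 0.11, limma adjusted p = 0.00213), and GAD2, which also makes it, had 0.40 (SE 0.22, adjusted p = 0.376). Their summed signal, most of it from GAD1, was 9296 to 16045 in parvocellular and 14408 to 24464 in magnocellular layers. No marker of either list was at 0. Their part in the NDST4 difference was not tested.

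**Figure D2:**
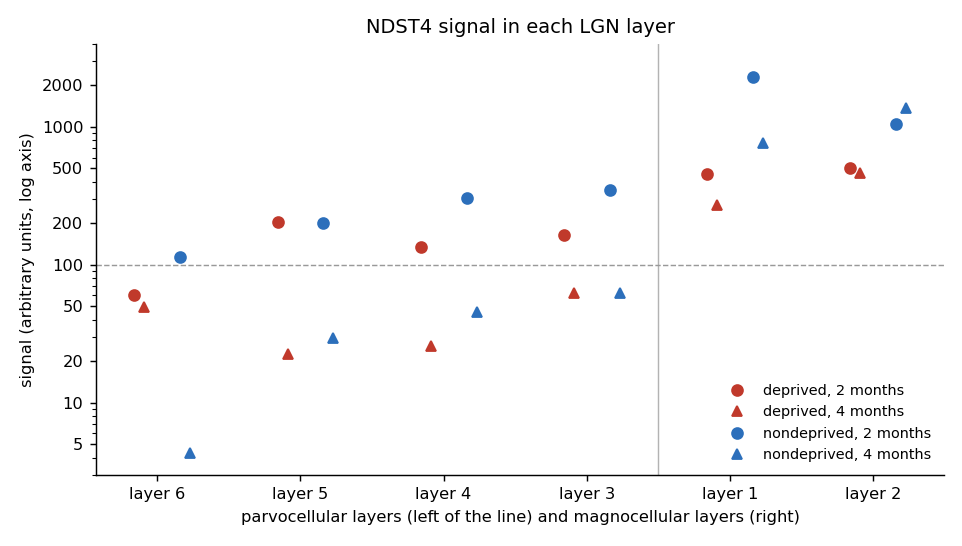
NDST4 signal in arbitrary units on a log axis (y axis) for each of the 24 arrays, by layer (x axis), with deprived layers in red left of nondeprived layers in blue, circles for 2 months, triangles for 4 months and a dashed line at 100. The 8 magnocellular arrays lie between 271 and 2288, and the 16 parvocellular arrays lie between 4.32 and 347, with all 8 of those at 4 months under the line.

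By single layers NDST4 averaged 57.2 ± 45.2 in layer 6, 115 ± 103 in layer 5, 128 ± 128 in layer 4 and 160 ± 134 in layer 3, and then 845 ± 439 in layer 2 and 944 ± 918 in layer 1 (SD, n = 4 each). Neighbours in this order overlapped, except that the lowest array of layer 2, at 465, lay above the highest of layer 3, at 347. Outer parvocellular layers (5 and 6) read 4.32 to 206 with a median of 55.1, against 26.0 to 347 with a median of 98.3 in inner ones (3 and 4). The log2 fold change of outer over inner layers was -1.01 (SE 0.40), with an unadjusted p of 0.0212 and an adjusted p of 0.559 in limma. Crossed layers (4 and 6, driven by the eye of the other side) over uncrossed layers (3 and 5) gave -0.81 (SE 0.40, adjusted p = 1.00), and magnocellular layer 1 over layer 2 gave -0.16 (SE 0.37, adjusted p = 1.00).

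Between deprived and nondeprived magnocellular layers the NDST4 signals did not overlap, with 271 to 500.03 in deprived and 759 to 2288 in nondeprived layers. The deprived layer was the lower one in 4 of 4 pairs, at 0.20 to 0.61 times the signal of its partner in the same LGN. Because the study had picked NDST4 from a deprivation comparison of these same arrays, the pair count, the size and the lack of overlap are no separate support for a difference. The log2 fold change was -1.61 (SE 0.34), and it was -1.41 without the array that stood apart, -1.69 at 2 months alone and -1.52 at 4 months alone. Over all probe sets tested the median in this comparison was 0.13, and it was -0.15 after each array was scaled to the same median, where NDST4 had -1.89. In parvocellular layers the deprived layer was lower in 4 of 8 pairs and higher in 4, with a log2 fold change of -0.10 (SE 0.48) that was -0.79 at 2 months alone and 0.58 at 4 months alone, where all signals were under 100. The GAPDH ratio was 3.95 to 50.8 in deprived and 3.74 to 14.3 in nondeprived magnocellular arrays. The summed signal of the GABA neuron markers was 18450 to 24464 in deprived and 14408 to 16724 in nondeprived magnocellular layers, without overlap. GAD1 alone, most of that sum, did overlap, at 16015 to 24134 in deprived and 14203 to 16324 in nondeprived layers. The lack of overlap thus rested on adding GAD2, whose highest signal on any array was 2435. The log2 fold change was 0.39 (SE 0.24, limma adjusted p = 0.837) for GAD1 and 0.81 (SE 0.45, adjusted p = 0.836) for GAD2. The part of the GAPDH ratio or of these markers in the magnocellular differences of NDST4, HS3ST1 and DSEL was not tested.

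NDST1, the widely expressed member of the family, was read most strongly by MmugDNA.16857.1.S1_at. It read 371 to 1535 with a median of 658 in deprived parvocellular layers, against 347 to 1031 with a median of 477 in nondeprived ones. Deprived magnocellular layers 1 and 2 read 893 and 2883 at 2 months and 1567 and 459 at 4 months, against 627 and 983 and then 492 and 679 in nondeprived layers 1 and 2. The 2883 came from the array that stood apart. Groups overlapped, with log2 fold changes of deprivation of 0.43 (SE 0.21) in parvocellular and 0.79 (SE 0.40) in magnocellular layers, the second being 0.32 without that array. Parvocellular over magnocellular layers gave -0.62 (SE 0.25, limma adjusted p = 0.208), -0.33 without the same array, and -0.83 (adjusted p = 0.0473) without deprived ipsilateral magnocellular layer 2 at 4 months. A second probe set, MmugDNA.38849.1.S1_at, went the other way with deprivation, at -0.10 (SE 0.22) in parvocellular and -0.59 (SE 0.40) in magnocellular layers. The third, MmugDNA.42504.1.S1_at, read at most 36.4 and was not tested.

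NDST2, the member best known from mast cells in mouse, read 164 to 434 with a median of 240.1 in deprived and 144 to 313 with a median of 234 in nondeprived parvocellular layers. Its highest magnocellular signal, 580.1, was again on the array that stood apart. Its log2 fold changes were 0.10 (SE 0.20) for deprivation in parvocellular layers, 0.31 (SE 0.36) in magnocellular layers (0.07 without that array) and -0.20 (SE 0.18, limma adjusted p = 0.633) for parvocellular over magnocellular layers. NDST3, known as a brain form of the enzyme in mouse, read 19.5 to 92.6 in parvocellular and 3.60 to 87.8 in magnocellular layers. It stayed under 100 on 24 of 24 arrays and was not tested.

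The O-sulfotransferases act on the chain after the NDST enzymes. HS2ST1 puts sulfate on the uronic acid, and its strongest probe set, MmugDNA.39662.1.S1_at, read 1838 to 2996 with a median of 2354 in deprived parvocellular layers, against 1474 to 2336 with a median of 1805 in nondeprived ones. Deprived magnocellular layers read 2131 to 3522 with a median of 2567.5, against 1169 to 2440 with a median of 1853 in nondeprived ones. The deprived layer was the higher one in 7 of 8 parvocellular and 3 of 4 magnocellular pairs, while the groups overlapped. Log2 fold changes were 0.33 (SE 0.12) and 0.60 (SE 0.30), the second being 0.80 without the array that stood apart. Other probe sets of HS2ST1 differed from this one. MmugDNA.20640.1.S1_at had -0.12 (SE 0.13) in parvocellular and -0.31 (SE 0.31) in magnocellular layers and was lower in the deprived layer of 6 of 8 and 4 of 4 pairs. MmugDNA.39661.1.S1_at and MmugDNA.34510.1.S1_at had 0.08 (SE 0.24) and -0.01 (SE 0.19) in parvocellular layers, and 0.74 (SE 0.39) and 0.72 (SE 0.41) in magnocellular layers. Averaged over all probe sets the gene had 0.04 in parvocellular and 0.25 in magnocellular layers. The fifth, MmugDNA.13042.1.S1_at, read at most 96.1 and was not tested.

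HS3ST1 adds the 3-O-sulfate, a rare mark best known from the site where heparin binds antithrombin. In magnocellular layers MmugDNA.17100.1.S1_at read 1046 and 926 at 2 months and 1056 and 769.9 at 4 months in deprived layers 1 and 2, against 1226 and 1696 and then 1508 and 1652 in nondeprived layers 1 and 2. No deprived signal reached the lowest nondeprived one, and the deprived layer read 0.51 to 0.76 times its partner in 4 of 4 pairs. Parvocellular groups overlapped, with 1041 to 2184 and a median of 1378 in deprived layers, against 859 to 2410 and a median of 1358 in nondeprived ones. There the deprived layer was the higher one in 6 of 8 pairs. The log2 fold change of deprivation was -0.68 (SE 0.26) in magnocellular layers, -0.77 without the array that stood apart and -0.96 after scaling to the same median, and it was 0.01 (SE 0.17) in parvocellular layers. A second probe set, MmugDNA.7069.1.S1_at, read 6.4 to 222 and had 0.50 (SE 0.78) in magnocellular layers, and the mean over both had -0.09.

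HS6ST1, which sulfates the glucosamine at another position, was a weak signal, 100 or more on 10 of 16 parvocellular and 4 of 8 magnocellular arrays. Deprived parvocellular layers read 79.6 to 276 with a median of 111, against 73.5 to 357 with a median of 109 in nondeprived ones. Deprived magnocellular layers 1 and 2 read 276 and 209 at 2 months and 134 and 57.7 at 4 months, against 81.0 and 163 and then 92.9 and 58.7 in nondeprived layers 1 and 2. Groups overlapped, and the log2 fold changes were -0.06 (SE 0.29) for deprivation in parvocellular layers and 0.66 (SE 0.48) in magnocellular layers, 0.42 without the array that stood apart. By layer class HS6ST1 had 0.02 (SE 0.26), HS2ST1 -0.08 (SE 0.12) and HS3ST1 0.22 (SE 0.14), with adjusted p-values of 0.978, 0.821 and 0.465 in limma.

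**Figure D3:**
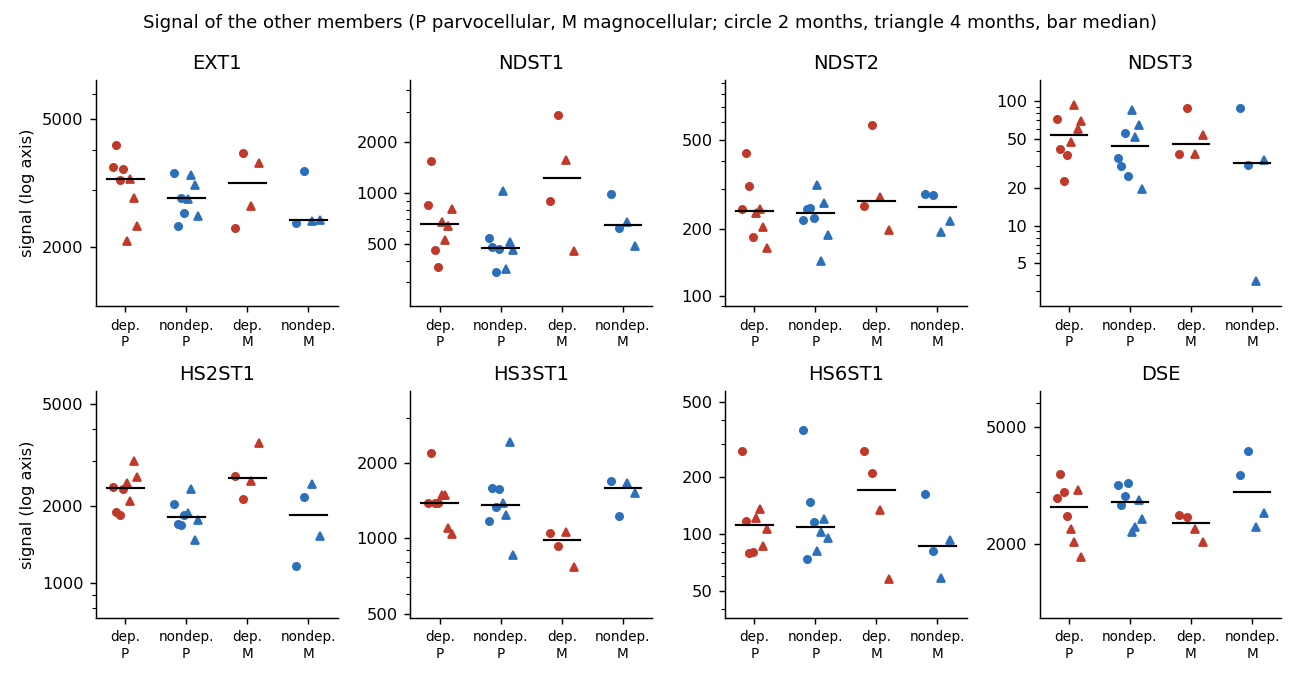
Signal in arbitrary units on log axes (y axes) of the strongest probe set of 8 genes, 1 panel each, in deprived and nondeprived parvocellular (P) and deprived and nondeprived magnocellular (M) layers (x axes), with deprived layers in red, nondeprived ones in blue, circles for 2 months, triangles for 4 months and bars for medians. Groups overlap in each panel except HS3ST1, where deprived magnocellular layers read 769.9 to 1056 and nondeprived ones 1226 to 1696.

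DSE and DSEL are the epimerases that turn glucuronic into iduronic acid and so make dermatan sulfate out of chondroitin sulfate. DSEL is known as the form that prevails in the mouse brain. Its strongest probe set, MmugDNA.38329.1.S1_at, read 1383 and 962 in deprived layers 3 and 5 and 1579 and 911 in deprived layers 4 and 6 at 2 months, against 763 and 633 in nondeprived layers 4 and 6 and 666 and 479 in nondeprived layers 3 and 5. At 4 months it read 1323, 1560.4, 766 and 1061 in deprived layers 3, 5, 4 and 6, against 501, 412, 493.4 and 1034 in their partners in the same LGN, layers 4, 6, 3 and 5. One nondeprived array, contralateral layer 5 at 4 months, thus reached into the deprived range, and the 7 others lay below all deprived signals. Deprived layers were higher in 8 of 8 pairs, at 1.03 to 3.79 times the signal of the partner.

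In magnocellular layers the DSEL signals of deprived and nondeprived layers did not overlap. Deprived layers 1 and 2 read 1223 and 1083 at 2 months and 774 and 1527 at 4 months. Nondeprived layers 1 and 2 read 555 and 381 at 2 months and 438 and 221 at 4 months. Deprived layers were higher in 4 of 4 pairs, at 1.95 to 3.50 times the signal of the partner. The study listed this same probe set from these arrays by requiring increase calls in 4 of 4 comparisons and a minimum fold. The pair count, the size and the lack of overlap are thus no separate support for a difference. The log2 fold change was 0.95 (SE 0.19) in parvocellular and 1.56 (SE 0.30) in magnocellular layers, where it was 1.76 without the array that stood apart and 1.28 after scaling to the same median. It was 0.91 and 1.32 at 2 months alone and 1.00 and 1.80 at 4 months alone. The effect at 4 months minus that at 2 months in parvocellular layers was 0.09 (SE 0.40). DSEL did not differ past the threshold by layer class, with 0.35 (SE 0.18, adjusted p = 0.322) for parvocellular over magnocellular layers.

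**Figure D4:**
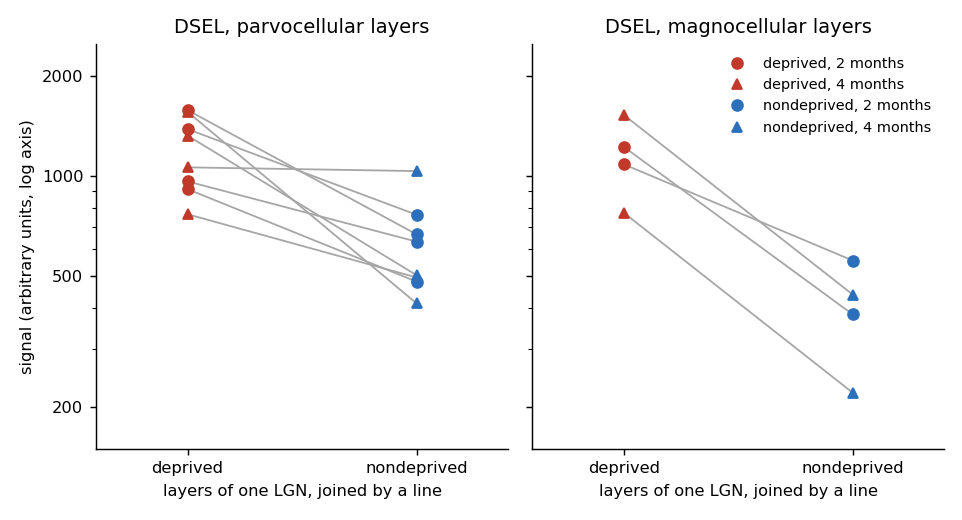
DSEL signal in arbitrary units on a log axis (y axis) of deprived layers (red, left) and nondeprived layers (blue, right) of parvocellular pairs (left panel) and magnocellular pairs (right panel), with a line joining the 2 layers of a pair in 1 LGN, circles for 2 months and triangles for 4 months. The line falls to the right in 8 of 8 parvocellular and 4 of 4 magnocellular pairs.

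A second DSEL probe set, MmugDNA.13381.1.S1_at, read 11.9 to 104. It reached 100 on 1 of 24 arrays, a deprived parvocellular one, and so passed the filter only through a deprived layer, and no difference is read from it. The third, MmugDNA.7271.1.S1_at, read at most 76.1 and was not tested. Of 6 markers of astrocytes 4 had a probe set, and 1 of 4, the filament protein GFAP, rose in deprived parvocellular layers, at 1.07 on the log2 scale (SE 0.21, limma adjusted p = 0.0184), while ALDH1L1 had 0.23, SLC1A2 0.16 and SLC1A3 -0.06 without passing. In magnocellular layers 0 of 4 passed in limma, with GFAP at 0.81 (SE 0.33, unadjusted p = 0.0323) and SLC1A2 at -0.27, the 1 below 0. Summed, they read 19262 to 48467 in deprived parvocellular layers, against 21313 to 39504 in nondeprived ones, and 27828 to 56205 in deprived and 18463 to 47914 in nondeprived magnocellular layers, and these ranges overlapped. None of these markers was at 0, and their part in the DSEL difference was not tested.

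DSE, the epimerase that prevails outside the brain in mouse, read 1807 to 3471 with a median of 2684 in deprived and 2195 to 3219 with a median of 2772 in nondeprived parvocellular layers. Deprived magnocellular layers read 2033 to 2510 with a median of 2362, against 2283 to 4128 with a median of 2999 in nondeprived ones. The deprived layer was lower in 4 of 8 parvocellular and 4 of 4 magnocellular pairs, while the groups overlapped. Its log2 fold change was -0.07 (SE 0.11) in parvocellular and -0.39 (SE 0.25) in magnocellular layers, -0.27 without the array that stood apart. A weaker probe set, MmuSTS.2363.1.S1_at, had 0.42 (SE 0.29) and 0.23 (SE 0.49).

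Over the 9 genes tested, limma called DSEL higher and 0 genes lower in deprived parvocellular layers, where 0.97% of all probe sets were called, 0.585% higher and 0.385% lower. The DSEL call was lost in 7 of 12 other settings and in 5 of 16 fits with an array left out. The median log2 fold change of the 9 genes was 0.10, against -0.0088 over all probe sets. The groups did not overlap for 0 of 9 genes, against 0.165% of all probe sets, 0.093% higher and 0.0718% lower. In magnocellular layers 0 of 9 genes and 0% of all probe sets were called, with 3 of 9 genes and 5.68% of all probe sets at an unadjusted p under 0.05. The median over the 9 genes was 0.31, against 0.13 over all probe sets. The difference of the effects between layer classes passed for 0 of 9 genes and 0% of all probe sets in limma, with 1 gene and 6.75% at an unadjusted p under 0.05. Because the genes were named with these contrasts known, nothing is read from these counts.

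By layer class the genes other than NDST4 had log2 fold changes of -0.62 to 0.35 and adjusted p-values of 0.208 to 0.991 in limma. The groups did not overlap for 0 of 9 genes, against 0.0797% of all probe sets, 0.0505% higher and 0.0292% lower. In the comparisons of outer with inner, crossed with uncrossed and layer 1 with layer 2, and of 4 months with 2 months, 0 of 9 genes and 0% of all probe sets passed. At an unadjusted p under 0.05 were 1 gene for outer against inner layers (NDST4) and 1 for the effect of duration (EXT1). The shares of all probe sets there were 8.5% and 3.89%. In the other 2 comparisons 0 genes were under it, against 2.74% and 3.04% of all probe sets.

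Other genes of the pathway were counted in 5 lists, with 48 genes tested. Of these, 1 was higher and 0 were lower in deprived parvocellular layers, where 0.97% of all probe sets were called. In magnocellular deprivation and by layer class 0 of 48 passed, beside 0% and 3.6% of all probe sets. The gene that rose was SULF1, a secreted enzyme that removes 6-O-sulfate from finished heparan sulfate chains, described here after its value was seen. It read 307 and 341 in deprived layers 3 and 5 and 432 and 368 in deprived layers 4 and 6 at 2 months, against 199, 228, 245 and 241 in their partners. At 4 months it read 451, 329, 461 and 353 in deprived layers 3, 5, 4 and 6, against 230, 266, 191 and 259 in their partners. The groups did not overlap, which held for 0.165% of all probe sets. In the fit the difference was 0.70 on the log2 scale (SE 0.14, limma adjusted p = 0.019), and the call was lost in 5 of 12 other settings and in 1 of 16 fits with an array left out. In magnocellular layers it had 0.50 (SE 0.39, adjusted p = 0.856). SULF2, its relative, had 0.46 (SE 0.14, adjusted p = 0.117), and HS3ST4, another 3-O-sulfotransferase, had 1.73 (SE 0.48, adjusted p = 0.094) in deprived parvocellular layers. These were also singled out after their values were seen.

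In the list of other heparan sulfate chain enzymes, 11 of 17 genes were tested, and the median log2 fold change of deprivation was -0.01 in parvocellular and 0.17 in magnocellular layers. For other enzymes of chondroitin and dermatan sulfate chains (9 of 14 tested) it was -0.06 and -0.11, and for linkage and precursor supply (9 of 11) -0.07 and -0.05. For core proteins (14 of 15) it was 0.10 and 0.27, and for lysosomal breakdown (5 of 9) -0.10 and 0.21. Over all probe sets the medians were -0.0088 and 0.13.

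Across the 24 arrays the genes whose log2 signals went most closely with NDST4 were RNF128 (Pearson r = 0.870), TOX2 (0.868), CYSTM1 (0.857), PON2 (0.831) and MEMO1 (0.829), out of 9448 compared. The mean signal of RNF128 was 249 in parvocellular and 640 in magnocellular layers, that of TOX2 213 and 512, and that of PON2 2056 and 3737. The 24 arrays come from the same 4 LGNs of 2 animals and fall into 2 layer classes, so these r values are a description.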

How the data were processed

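Laser-captured layers of 4 LGNs from 2 macaques gave 24 rhesus genome arrays. GCOS gave the authors 1 signal for every probe set, and these deposited intensities are linear and scaled per array, to a mean of 500.04 once the outer 2% on either side are trimmed. Of all probe sets 24956 carry 1 symbol, 361 more than 1 and 27449 none. Where probe sets share a gene, that with the highest mean log2 signal stands for it, and the others are described beside it.

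Signals under 1 were set to 1 before log2. Probe sets with 100 or more on at least 1 array, 37623 in all, were fitted in R 4.3.3 with limma 3.58.1 (lmFit, eBayes with a trend), with the LGN as a fixed block and Benjamini-Hochberg adjustment over all of them at 0.05. The code was tested on simulated data. Magnocellular deprivation had been planned as a test and is given as a description. The genes and lists were chosen with earlier results of these data known. Genes of lists were to be named where they passed in magnocellular deprivation or by layer class. Alternatives covered scaling, pseudocount, floor, filter, variance model, block, the GAPDH ratio, probe sets, each array left out and each animal alone.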

Additional observations from a re-analysis of the deposited data

Results flagged for a closer look

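Of 40 groups of 4 or 8 arrays, 7 held 1 array that lay apart from the rest of its group by Dixon's criterion on the linear signals. In each of the 7 it was the highest array. Chance gives such an array in about 1 of 20 groups if values are normally spread. Linear signals need not be, so nothing is read from the count. NDST1 read 1535 in deprived contralateral parvocellular layer 6 at 2 months, with the other deprived arrays at 371 to 856, and 1031 in nondeprived contralateral layer 3 at 4 months, with the others at 347 to 543. HS3ST1 read 2184 in the same deprived layer 6, with the others at 1041 to 1490, and 2410.2 in nondeprived ipsilateral layer 4 at 4 months, with the others at 859 to 1577. HS6ST1 read 276 in deprived contralateral layer 4 at 2 months, with the others at 79.6 to 135, and 357 in nondeprived layer 3 of the same LGN, with the others at 73.5 to 148. Those layers 4 and 3 also had the highest median signals over all probe sets of any parvocellular array, 111 and 112. On them 52.9% and 53.0% of probe sets read 100 or more. The part of this in the HS6ST1 values was not tested. EXT1 read 3443 in nondeprived ipsilateral magnocellular layer 1 at 2 months, with the others at 2379 to 2431.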

How the results depend on the processing

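In parvocellular layers the 1 call among the 9 genes, DSEL, became 0 after scaling to the same median, with signals under 50 set to 50, without the trend, with the GAPDH ratio as a covariate, at 2 months alone, at 4 months alone and when the probe sets of each gene were averaged. Leaving out 1 array gave 0 to 1 calls, with 0 without deprived layer 4 or nondeprived contralateral layer 5 at 2 months, or deprived layer 3, deprived layer 5 or nondeprived ipsilateral layer 6 at 4 months. In magnocellular layers the count of 0 became 1 (DSEL) at 4 months alone, where 46 of all 37623 probe sets were called. The count stayed 0 with each array left out, beside 0 to 9 of all probe sets. By layer class NDST4 was called in all settings run, and leaving out 1 array gave 1 to 2 calls, the second being NDST1. The fit that called NDST1 called 1872 of all probe sets, the most of any fit with an array left out. Over all probe sets the 365 calls of parvocellular deprivation ranged from 1 to 598 over the other settings, and the 1355 by layer class from 222 to 1685. With the animal in place of the LGN as the block, NDST4 had -3.33 by layer class and DSEL 0.95 and 1.56. The layout is balanced, so this change of block could not move the log2 fold changes. It changed no count of the 9 genes. A fit with no block at all was not run.

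Small differences by layer class changed sign. HS2ST1, at -0.08, had 0.041 after scaling to the same median, 0.0035 at 2 months alone and -0.17 to 0.00091 with an array left out. HS6ST1, at 0.02, had -0.33 at 2 months alone and -0.17 to 0.14. DSE, at -0.0040, had 0.11 after scaling to the same median, 0.037 at 4 months alone, 0.19 with probe sets averaged and -0.035 to 0.0498, and EXT1, at 0.05, had -0.035 to 0.11. The cause was not tested. SULF1 lost its call after scaling to the same median, without the trend, in each animal alone, with probe sets averaged and without deprived contralateral layer 4 at 2 months (adjusted p = 0.0562). Layer 1 against layer 2 could not be fitted in each animal alone. In magnocellular layers an array left out also removes the contribution of its partner.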

Other observations

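For each gene other than NDST4, the gene whose log2 signal followed it most closely over the 24 arrays is given as a description, out of 9448 compared (9449 for NDST3). For DSEL this was GDPD2, with a Pearson r of 0.881 and mean signals of 478 in parvocellular and 322 in magnocellular layers. For DSE it was HDLBP (0.853), for EXT1 SGCB (0.758), for HS2ST1 FUBP3 (0.860), for HS3ST1 SDHC (0.759) and for HS6ST1 SPDEF (0.891). For NDST1 it was LOC694700 (0.856), for NDST2 ZBTB7B (0.894), and for NDST3, whose signals were all under 100, CDH8 (0.733).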
